A study of Homo sapiens with 6 samples.

Results

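RNA levels of 10 genes of the TGF-beta family were measured in SKOV3 cells, an established line from a human ovarian carcinoma, after treatment with fenbendazole. The 10 genes are the ligand genes TGFB1, TGFB2, TGFB3, INHBA and BMP4, the receptor genes TGFBR1, TGFBR2 and TGFBR3, and the SMAD genes SMAD3 and SMAD7. They are 10 of the 61552 rows of the deposited gene table. The family was chosen by the measured fold change of TGFB3, which is among the largest falls in the comparison described here. The change of TGFB3 is therefore given as a description with no test. The other 9 genes were taken by name, with earlier results of these data known. Their values come from the same comparison, so a pass or a miss among them does not bear independently on TGFB3.

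Poly(A) RNA was sequenced from cells kept for 48 h with fenbendazole at 1 µM (libraries 7, 8 and 9) or with the vehicle DMSO (libraries 10, 11 and 12), 3 libraries per group, named here by the number in their titles. Fenbendazole is a benzimidazole used against parasitic worms that binds tubulin. All 6 libraries are of 1 cell line with no other treatment named, and nothing in the labels ties a library to a culture of its own, so the tests measure the spread between libraries, which may be technical. Of 11 markers of ovarian carcinoma and of this line, 7 (PAX8, ERBB2, EPCAM, KRT7, KRT8, KRT18 and MUC1) were over 10 CPM (counts scaled to library size) in every library. The summed level of the 11 markers was 8751 to 17400 CPM in DMSO, highest in DMSO 11, and 5266 to 5819 CPM with fenbendazole, and its part in the differences below was not tested. In bulk RNA, fewer cells that express a gene and less of its RNA per cell cannot be told apart.

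TGF-beta ligands are secreted in a latent complex and, once released, bind a type II receptor (TGFBR2) that recruits and phosphorylates a type I receptor (TGFBR1). The type I receptor phosphorylates SMAD2 and SMAD3, which enter the nucleus with SMAD4, and SMAD7 is an induced inhibitor that closes the loop. In epithelial and carcinoma cells the pathway is known for arrest of growth, for matrix production and for epithelial to mesenchymal transition, and activins and BMPs use related receptors of the same superfamily.

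Library totals ran from 13170775 (DMSO 12) to 22128930 counts (DMSO 11), so that 3 counts stood for 0.132 to 0.223 CPM. CPM values are on the TMM scale, a scaling that evens out composition between libraries. DMSO 11 differed from the other controls in a way that followed the GC content of genes. Among the 4244 tested genes of lowest GC content (23.1% to 41.8%) its median log2 ratio to the mean of DMSO 10 and 12 was -0.63, and among the 4244 of highest GC content (55.4% to 74.5%) it was 0.83. Changes of the 10 genes are therefore also given without DMSO 11, and for some with offsets for GC content and transcript length. For other genes the value without DMSO 11 is given where it changed the call or the direction or moved the change by over 1.5 times. Summed markers of other cell types were 67.5 to 106 CPM in DMSO and 66.5 to 69.8 CPM with fenbendazole for 9 fibroblast genes, and 10.4 to 12.7 and 13.4 to 14.1 CPM for 5 endothelial genes, 3 of which were under 1 CPM in all libraries. For 6 leukocyte genes the sums were 12.4 to 18.7 and 15.1 to 17.7 CPM, with CD3E at 0 counts in all libraries and 5 of the 6 under 1 CPM in all of them. The part of these markers in the results was not tested.

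Opposite differences were found among the ligand genes. TGFB3 was 3.89 times lower with fenbendazole, and INHBA, which encodes the subunit of activin A, was 3.46 times higher. All 10 genes passed the filter on low counts. Of the 9 genes other than TGFB3, 1 rose (INHBA) and 0 fell by edgeR's quasi-likelihood test at an adjusted p of 0.05, which called 3.11% of all 17363 tested genes higher and 0.921% lower. Unadjusted p-values under 0.05, DESeq2 and limma-voom also gave 0 lower among the 9, and 2, 2 and 1 higher. The share of all genes at an unadjusted p under 0.05 was not counted, so such counts have no background here. The median log2 fold change of the 10 genes, TGFB3 included, was -0.04, beside -0.06 over all genes tested. The split of all calls, 540 higher and 160 lower, was 455 and 231 under upper-quartile scaling and 2151 and 1511 under offsets for GC content and length. It was 1004 and 722 under DESeq2, and 561 and 143 under limma-voom. Without DMSO 11, 3 of the 9 rose (INHBA, TGFB2 and SMAD3) and 0 fell, in a fit that called 13.1% of genes higher and 9.23% lower. The 2 groups did not overlap in CPM for TGFB2, INHBA and SMAD3, all higher, and for TGFBR2, lower. The same absence of overlap held for 17.0% of tested genes in the higher and 15.5% in the lower direction, and TGFB3 itself is among the latter.

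TGFB3 encodes the third TGF-beta isoform (ENSG00000119699, GRCh38 chromosome 14, 75958097 to 75983011). The 3 controls (DMSO 10, 11 and 12) held 296, 371 and 265 TGFB3 counts, and the treated libraries (fenbendazole 7, 8 and 9) held 66, 74 and 64. On the CPM scale these were 16.5, 16.3 and 19.7 against 4.37, 5.34 and 3.77. Every control was thus far above every treated library, and DMSO 11, which differed from its group for many genes, lay beside DMSO 10 here. The log2 fold change was -1.96 ± 0.219 (SE), and -2.01 without DMSO 11. It lay between -2.10 and -1.84 when each library was left out in turn. Among 137 genes that were called lower, did not overlap between groups and had a mean of at least 5 CPM and a symbol, only HSD11B2 (-2.56) and LINC02593 (-2.46) had a larger fall, and LYNX1 (-1.90) came next. This rank restates the choice of the family and is a description. It depends on those criteria, as the lowest log2 fold change over all tested genes was -6.003. In the GENCODE v29 annotation 163 of the 4914 exonic bases of TGFB3 (3.32%) are shared with the antisense gene TGFB3-AS1, which had at most 4 counts in any library.

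INHBA (ENSG00000122641, chromosome 7, 41667168 to 41705834) encodes the inhibin beta A subunit, whose dimer is activin A. The controls held 48, 85 and 55 counts of it, and the treated libraries 199, 168 and 186. Its level was 2.68, 3.73 and 4.09 CPM in DMSO 10, 11 and 12, and 13.2, 12.1 and 10.95 CPM in fenbendazole 7, 8 and 9. Every treated library was higher than every control, by more than the spread within either group. The log2 fold change was 1.79 ± 0.239 (SE; adjusted p = 0.00859), and 1.86 without DMSO 11 (adjusted p = 7.18e-05). Leaving out fenbendazole 7, 8 or 9 ended the call, with adjusted p-values of 0.0691, 0.0619 and 0.0519 and log2 fold changes of 1.73, 1.79 and 1.86. INHBA stood at rank 154 of 494 genes that rose under the criteria that placed TGFB3.

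TGFB2 (ENSG00000092969, chromosome 1, 218345336 to 218444619), which encodes the second isoform, was at 7.63, 4.26 and 5.73 CPM in DMSO 10, 11 and 12. With fenbendazole it was at 12.6, 11.04 and 11.5 CPM in libraries 7, 8 and 9. All 3 treated libraries lay above all 3 controls. The log2 fold change of 1.00 ± 0.257 (SE) did not pass the threshold (adjusted p = 0.0811), with a 95% interval of 0.401 to 1.596. It passed without DMSO 11 (0.81, adjusted p = 0.00939), with GC and length offsets (0.81, adjusted p = 0.0114) and with DESeq2 (1.00, adjusted p = 0.00932), and in no other setting tried. In GENCODE v29, 1371 of 5151 exonic bases of TGFB2 are shared with TGFB2-OT1 on the same strand, which had at most 4 counts in any library.

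TGFB1 (ENSG00000105329, chromosome 19, 41301587 to 41353922), which encodes the first isoform, was set apart by 1 control. It was at 36.7, 69.8 and 27.7 CPM in DMSO 10, 11 and 12, and at 31.5, 26.4 and 21.6 CPM in fenbendazole 7, 8 and 9. The groups overlapped, and DMSO 11 stood at 2.16 times the mean of the other controls. The log2 fold change was -0.76 ± 0.342 (SE; adjusted p = 0.253), with a 95% interval of -1.56 to 0.04. Without DMSO 11 it was -0.28 (adjusted p = 0.277), and with GC and length offsets -0.26 (adjusted p = 0.208). Its annotated exons share 215 of 3238 bases with HNRNPUL1 on the opposite strand, an abundant gene with up to 5779 counts, and the labels do not say whether strand was kept.

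BMP4, a ligand of the BMP branch (ENSG00000125378, chromosome 14, 53949736 to 53958761), was near the limit of detection. Its counts were 18, 23 and 7 in the controls and 16, 14 and 8 in the treated libraries, or 0.844 ± 0.280 and 0.847 ± 0.326 CPM (SD, n = 3 each). The 95% interval of its log2 fold change of -0.03 ran from -1.15 to 1.09, so changes within those limits are not excluded. Without DMSO 11 the value was 0.125 (adjusted p = 0.912).

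**Figure D1:**
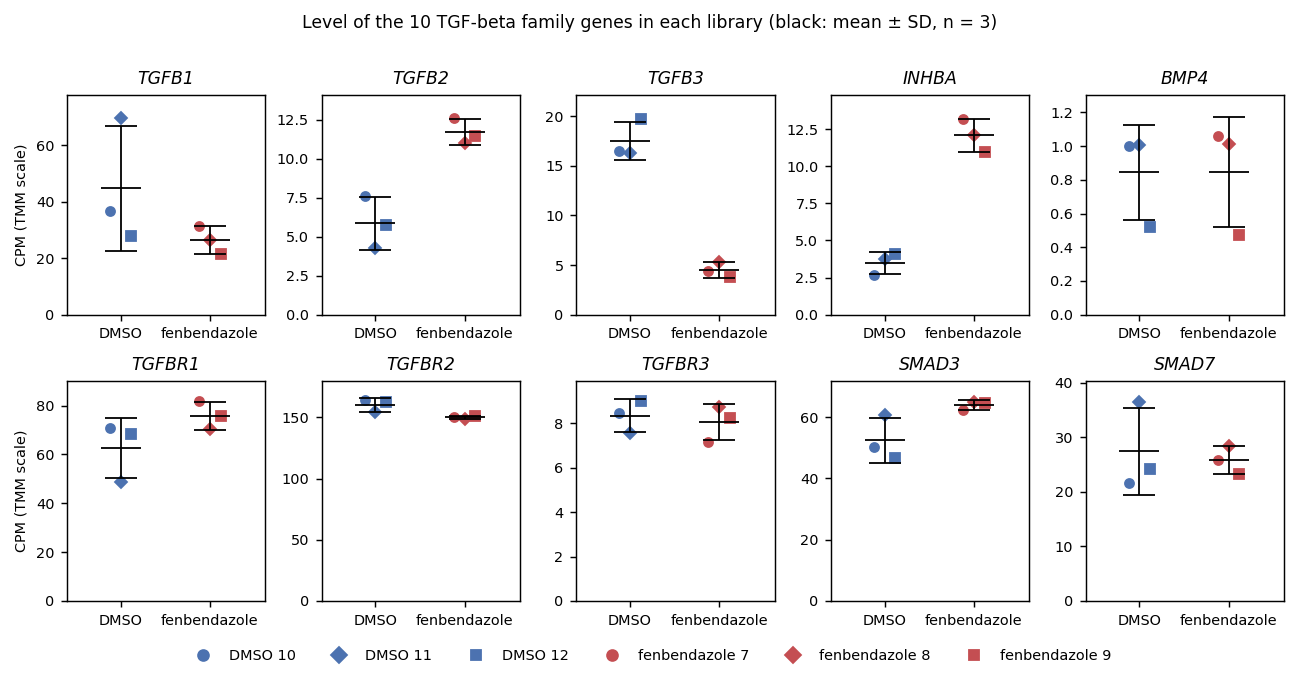
CPM on the TMM scale (y axis, from 0) of each of the 10 genes in the 3 DMSO (blue) and 3 fenbendazole (red) libraries, with the marker shape giving the library and black bars the mean ± SD. TGFB3 lies at 16.3 to 19.7 in DMSO and 3.77 to 5.34 with fenbendazole, INHBA and TGFB2 lie higher with fenbendazole, and DMSO 11 is the high control point of TGFB1 and SMAD7.

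Levels of different genes were compared on the authors' FPKM scale, which corrects for transcript length. In DMSO, TGFB1 made up 60.7% to 78.5% of the summed FPKM of the 3 TGF-beta ligand genes, TGFB3 19.3% to 33.7% and TGFB2 2.25% to 6.38%. With fenbendazole TGFB1 made up 72.3% to 75.9%, TGFB3 9.15% to 13.4% and TGFB2 14.3% to 16.6%. TGFB1 was thus the leading isoform in all 6 libraries, and the order of TGFB2 and TGFB3 differed between the groups. The FPKM of TGFB2 was 0.275, 0.117 and 0.166 times that of TGFB3 in DMSO 10, 11 and 12, and 1.63, 1.06 and 1.796 times in fenbendazole 7, 8 and 9. INHBA went from 0.105 to 0.125 times the FPKM of TGFB3 in DMSO to 1.15 to 1.72 times with fenbendazole. These ratios contain TGFB3, which chose the family, and are descriptions.

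**Figure D2:**
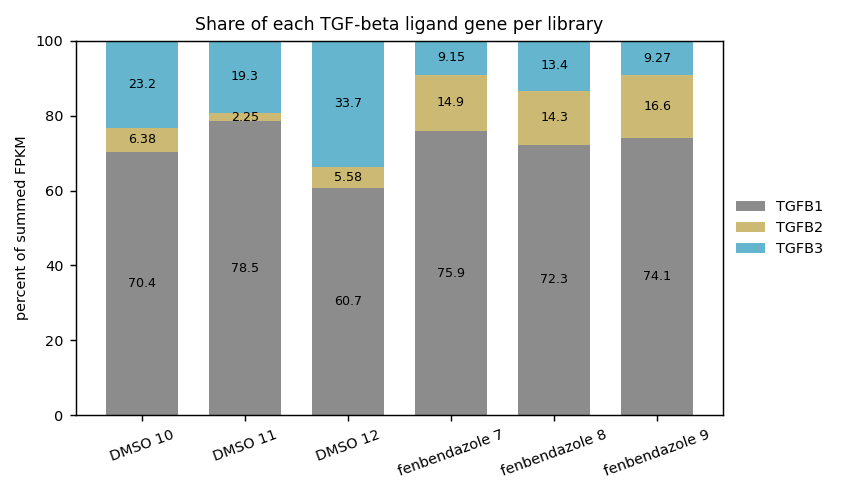
Percent of the summed FPKM of TGFB1, TGFB2 and TGFB3 (y axis, from 0) in each library. The TGFB3 share is 19.3 to 33.7 percent in the DMSO libraries and 9.15 to 13.4 percent in the fenbendazole libraries, while the TGFB2 share is 2.25 to 6.38 and 14.3 to 16.6 percent.

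Over all 10 genes, TGFBR2 had the highest FPKM in DMSO (31.6 ± 0.183, SD, n = 3). TGFB1 (15.5 ± 7.61), SMAD3 (8.88 ± 1.25), TGFBR1 (8.73 ± 1.496) and SMAD7 (8.44 ± 2.80) followed, and each of these 4 overlapped its neighbour in the order. TGFB3 came next (5.13 ± 0.794), clear of SMAD7 above and of TGFBR3 (1.33 ± 0.0954) below. TGFB2 (0.911 ± 0.252), INHBA (0.597 ± 0.126) and BMP4 (0.482 ± 0.217) were the lowest, and the last 2 overlapped. With fenbendazole TGFBR2 again led (28.4 ± 0.426), before TGFBR1 (10.3 ± 0.622), SMAD3 (10.1 ± 0.528), TGFB1 (8.55 ± 1.28) and SMAD7 (7.57 ± 0.910), whose ranges overlapped from one to the next. INHBA (1.801 ± 0.257) and TGFB2 (1.75 ± 0.160) overlapped each other. TGFB3 (1.23 ± 0.340) came next, below all TGFB2 values but within the range of INHBA at its upper end, and it overlapped TGFBR3 (1.07 ± 0.0977). BMP4 was last (0.371 ± 0.161).

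Promoter windows of the ligand genes with the largest differences, from RefSeq on GRCh38.p14, are shown to compare their start regions. Each holds 250 bases before to 50 bases after an annotated start, 5′ to 3′ on the gene's strand, and all 10 genes had at least 1 window. Capitals mark TATAAA, the usual core of a TATA box, on either strand. They also mark TGACG, the core of the cyclic AMP response element, on either strand. The third marked element is CAGAC, which SMADs can bind, again on either strand.
TGFB3 (upstream start, chr14:75982962-75983261, minus strand): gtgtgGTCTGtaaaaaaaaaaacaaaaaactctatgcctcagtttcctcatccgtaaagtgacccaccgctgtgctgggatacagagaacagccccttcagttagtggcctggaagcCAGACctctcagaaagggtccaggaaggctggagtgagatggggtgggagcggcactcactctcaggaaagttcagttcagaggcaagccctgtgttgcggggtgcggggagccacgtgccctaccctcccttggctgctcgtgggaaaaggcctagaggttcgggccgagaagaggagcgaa
TGFB3 (downstream start, chr14:75981946-75982245, minus strand): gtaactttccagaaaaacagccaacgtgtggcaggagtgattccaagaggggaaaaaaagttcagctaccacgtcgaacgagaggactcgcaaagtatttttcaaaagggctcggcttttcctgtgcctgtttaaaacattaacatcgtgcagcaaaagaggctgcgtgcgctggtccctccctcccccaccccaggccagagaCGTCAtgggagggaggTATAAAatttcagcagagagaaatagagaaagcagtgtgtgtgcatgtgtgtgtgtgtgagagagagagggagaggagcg
TGFB2 (chr1:218345086-218345385, plus strand): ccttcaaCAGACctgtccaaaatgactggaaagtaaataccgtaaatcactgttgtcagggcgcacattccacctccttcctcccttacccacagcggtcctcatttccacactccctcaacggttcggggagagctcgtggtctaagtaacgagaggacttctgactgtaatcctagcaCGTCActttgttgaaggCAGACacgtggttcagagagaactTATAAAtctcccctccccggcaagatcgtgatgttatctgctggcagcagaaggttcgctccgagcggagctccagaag
INHBA (chr7:41703041-41703340, minus strand): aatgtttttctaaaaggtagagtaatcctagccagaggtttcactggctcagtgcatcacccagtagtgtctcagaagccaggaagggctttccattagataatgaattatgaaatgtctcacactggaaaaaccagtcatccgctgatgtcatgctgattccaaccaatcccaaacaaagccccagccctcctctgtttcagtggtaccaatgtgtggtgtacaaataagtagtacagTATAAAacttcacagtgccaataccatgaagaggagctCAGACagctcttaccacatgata

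The downstream TGFB3 window and the TGFB2 window hold the same pair of short elements, TGACG and TATAAA. The share of all windows that hold both was not counted, so the pair has no background here. Among the other members, TGACG is also in windows of TGFBR1 and SMAD3, and TATAAA in a window of SMAD7. TGFB3 was lower with fenbendazole, while the higher level of TGFB2 did not pass the threshold with all 6 libraries. In TGFB3 the core TGACG, read on the opposite strand, begins 46 bases and TATAAA 30 bases before the start, and in TGFB2 they begin 70 and 29 bases before it. INHBA has TATAAA 11 bases before its start and lacks TGACG in this window. The SMAD element CAGAC occurs 2 times in TGFB2, 2 times in the upstream TGFB3 window, 1 time in INHBA beyond the start, and not in the downstream TGFB3 window. Of 34943 RefSeq windows of this length, 24.5% hold TGACG, 11.6% TATAAA and 45.3% CAGAC on either strand. The full cyclic AMP element TGACGTCA (1.84% of windows, and counted within TGACG), the AP-1 element TGANTCA (7.72%) and the SMAD palindrome GTCTAGAC (0.203%) are not in these 4 windows. Counts are per gene, so these data do not tell which TGFB3 start was used.

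The receptor genes did not pass the threshold. TGFBR2, the type II receptor (ENSG00000163513, chromosome 3, 30606601 to 30694142), was at 163.7, 153.9 and 162.6 CPM in DMSO 10, 11 and 12, and at 150.0, 148.9 and 150.7 CPM in fenbendazole 7, 8 and 9. The treated libraries lay just below the controls, by -0.10 ± 0.108 on the log2 scale (SE; adjusted p = 0.640), with a 95% interval of -0.35 to 0.16, and by -0.115 without DMSO 11. TGFBR1, the type I receptor (ENSG00000106799, chromosome 9, 99104038 to 99154192), was at 70.9, 48.6 and 68.4 CPM against 81.7, 70.3 and 75.6 CPM. Its groups overlapped, DMSO 11 was the lowest library, and the log2 fold change was 0.28 ± 0.173 (SE; adjusted p = 0.388; 95% interval -0.13 to 0.68) and 0.13 without DMSO 11. TGFBR3 encodes betaglycan, a co-receptor that presents ligand to the type II receptor (ENSG00000069702, chromosome 1, 91680343 to 91906335). It was at 8.47, 7.55 and 9.0 CPM against 7.15, 8.73 and 8.25 CPM, and its log2 difference was -0.05 ± 0.200 (SE; adjusted p = 0.902; 95% interval -0.52 to 0.42) and -0.11 without DMSO 11. No receptor gene passed the threshold in any setting tried.

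SMAD3, the receptor-activated SMAD of the TGF-beta and activin branch (ENSG00000166949, chromosome 15, 67063763 to 67195173), was at 50.1, 60.7 and 46.6 CPM in DMSO 10, 11 and 12. It was at 62.2, 65.0 and 64.7 CPM in fenbendazole 7, 8 and 9, each above every control, with DMSO 11 the nearest. Of its 9113 annotated exonic bases 182 are shared with an antisense gene. Its log2 fold change of 0.29 ± 0.145 (SE) did not pass the threshold (adjusted p = 0.298; 95% interval -0.05 to 0.62). It was 0.41 without DMSO 11 (adjusted p = 0.00486) and 0.37 with GC and length offsets (adjusted p = 0.0137). SMAD7, the inhibitory SMAD (ENSG00000101665, chromosome 18, 48919853 to 48950965), was at 21.6, 36.5 and 24.3 CPM against 25.8, 28.5 and 23.3 CPM. DMSO 11 was the highest of the 6 and the treated libraries lay among the controls. The log2 fold change of SMAD7 was -0.09 ± 0.228 (SE; adjusted p = 0.849; 95% interval -0.62 to 0.45), and its sign turned without DMSO 11 (0.18, adjusted p = 0.368) and with GC and length offsets (0.21, adjusted p = 0.233).

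**Figure D3:**
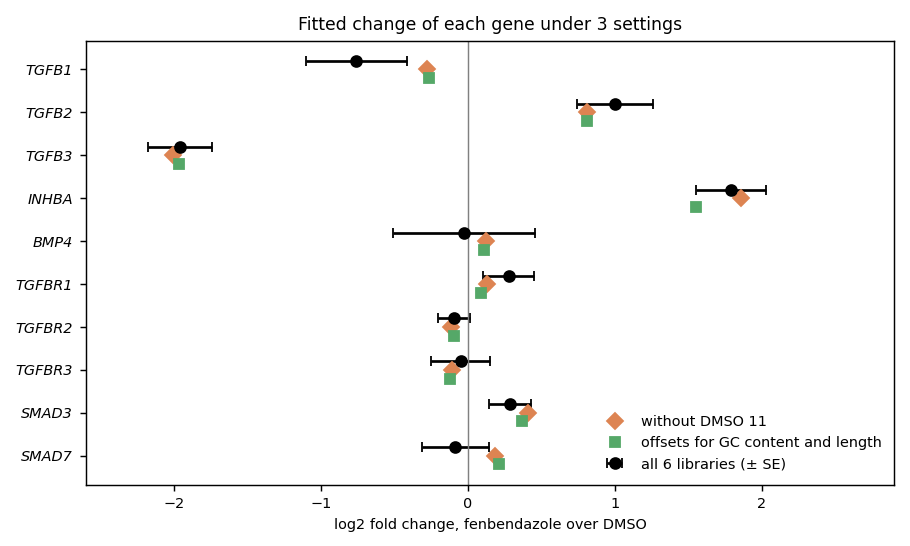
Log2 fold change, fenbendazole over DMSO (x axis), of each of the 10 genes with all 6 libraries (black, ± SE), without DMSO 11 (orange diamonds) and with offsets for GC content and length (green squares). TGFB3 stays between -2.01 and -1.96 and INHBA between 1.55 and 1.86, while TGFB1 moves from -0.76 to -0.28 and -0.26.

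The spread of the controls followed GC content, measured on the longest GENCODE v29 transcript, for some of these genes but not for all. TGFB1 (63.5% GC) and SMAD7 (58.7%) are in the group of highest GC content, and DMSO 11 stood at 2.16 and 1.59 times the mean of the other controls. TGFB2 (38.9%) and TGFBR1 (39.0%) are in the group of lowest GC content, where DMSO 11 stood at 0.637 and 0.698 times that mean. INHBA (39.1%) is also in that group, but DMSO 11 stood at 1.10 times the mean there. TGFB3 (48.9%) is in a middle group (47.75% to 55.38% GC), where the median log2 ratio of DMSO 11 over all tested genes was 0.184. For TGFB3, DMSO 11 stood at 0.899 times the mean, the other way from that median. TGFB3 and INHBA changed as much without DMSO 11 as with it, and for TGFB1, TGFB2, SMAD3 and SMAD7 the part of DMSO 11 in the fitted change is given by the values without it.

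**Figure D4:**
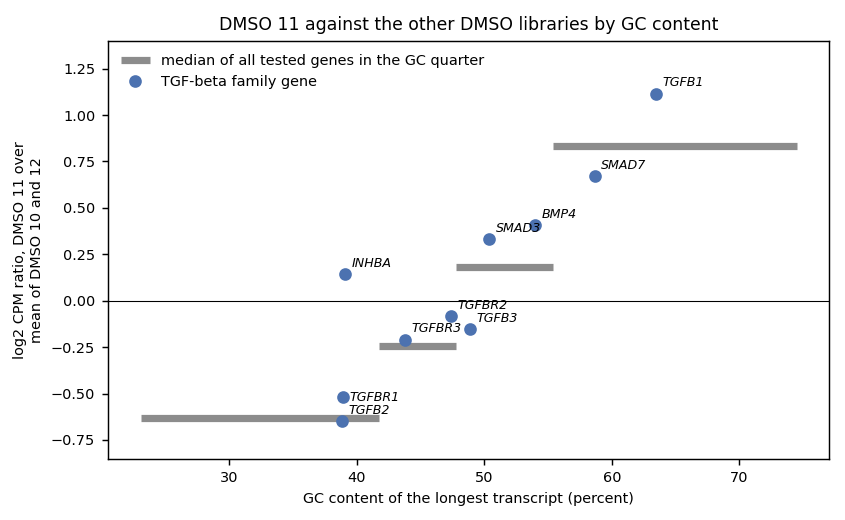
Log2 ratio of the CPM in DMSO 11 to the mean of DMSO 10 and 12 (y axis) against the GC percent of the longest transcript (x axis) for the 10 genes, with grey bars for the median of all tested genes in each of 4 equal groups by GC content. The grey medians go from -0.63 to 0.83, and TGFB1 and SMAD7 lie at the GC-rich, high end.

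The other genes of the pathway were taken by role in 9 lists of 156 genes, of which 155 matched the table and 125 were tested. Of these, 6 rose (4.80%) and 2 fell (1.6%), beside 3.11% and 0.921% of all genes. Their median log2 fold change was -0.05, beside -0.06 over all genes tested. Without DMSO 11, 25 of 124 rose and 13 fell, in the fit that called 13.1% of all genes higher and 9.23% lower. As the lists were chosen with earlier results of these data known, their counts here and below are descriptions.

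Among 28 tested genes that TGF-beta and SMAD3 are known to induce, 4 rose and 0 fell, beside 3.11% and 0.921% of all genes tested. The list was chosen with earlier results of these data known, so its counts are descriptions and not a test of induction. The median of the 28 was 0.08. CCN2, a matricellular protein gene that YAP and TEAD also induce, went from 8.40 ± 2.50 to 31.8 ± 1.97 CPM (SD, n = 3 each; 1.91 ± 0.240, SE; adjusted p = 0.00720). TAGLN, an actin-binding protein gene, went from 17.2 ± 3.86 to 48.5 ± 2.44 CPM (adjusted p = 0.00865). TPM1, a tropomyosin gene that was named after its value was seen, rose by 0.71 ± 0.112 on the log2 scale (SE; adjusted p = 0.0154). Leaving out fenbendazole 7 or 8 ended the call of CCN2, with adjusted p-values of 0.0559 and 0.0525. For TAGLN, leaving out fenbendazole 7, 8 or 9 gave 0.0585, 0.0626 and 0.0700. For TPM1 the same omissions gave 0.122, 0.102 and 0.116, and omission of DMSO 10 gave 0.0808. Without DMSO 11, 13 of the 28 rose and 1 fell, with a median of 0.27, where 13.1% of all genes were called higher and 9.23% lower and the median of those tested was -0.005.

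Of 10 tested targets of BMPs and SMAD1/5, 0 rose and 1 fell, beside 3.11% and 0.921% of all genes tested. The median of the 10 was -0.23. The fit without DMSO 11 gave 0 rises and 2 falls among them, beside 13.1% and 9.23% of all genes. ID4, an inhibitor of helix-loop-helix factors, was at 131.6, 102.0 and 127.6 CPM in DMSO and 60.1, 65.2 and 72.8 CPM with fenbendazole (-0.87 ± 0.151, SE; adjusted p = 0.0214). Omission of DMSO 10 or 12 ended its call (adjusted p of 0.0933 and 0.0584), as did omission of fenbendazole 7, 8 or 9 (0.154, 0.135 and 0.103). Its relative ID1 was at 53.2, 271.1 and 67.9 CPM in DMSO 10, 11 and 12 and at 40.9, 46.4 and 36.3 CPM with fenbendazole. DMSO 11 stood at 4.48 times the mean of the other controls for ID1, whose log2 fold change was -1.67 ± 0.585 (SE; adjusted p = 0.165) and -0.55 (adjusted p = 0.00943) without that library. ID3 stood at 0.05 on the log2 scale (adjusted p = 0.893), and at 0.16 (adjusted p = 0.424) without DMSO 11. MSX2, a homeobox gene, had -0.65 (adjusted p = 0.149), and passed with GC and length offsets (-0.68, adjusted p = 0.0282).

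Latent complex and activation genes gave 1 rise and 0 falls among 17 tested, beside 3.11% and 0.921% of all genes tested. The fit without DMSO 11 gave 3 rises and 1 fall among them, beside 13.1% and 9.23% of all genes. THBS1, thrombospondin 1, an activator of latent TGF-beta, was at 302.0, 341.2 and 312.1 CPM in DMSO and 523.9, 510.6 and 491.7 CPM with fenbendazole (0.68 ± 0.112, SE; adjusted p = 0.0176). Its call ended on omission of DMSO 10 or 12 (adjusted p of 0.0905 and 0.0568) or of fenbendazole 7, 8 or 9 (0.136, 0.126 and 0.114). It also ended with limma on log2(FPKM + 0.1) (adjusted p of 0.0506). LTBP1, which tethers latent TGF-beta to the matrix, had 123.7 ± 9.36 CPM in the controls and 119.8 ± 2.27 CPM in the treated libraries (SD, n = 3 each; adjusted p = 0.844), a log2 difference of -0.05 that was 0.016 without DMSO 11. LTBP3 was at 38.8, 91.1 and 36.7 CPM in DMSO 10, 11 and 12 against 32.0, 29.8 and 23.4 CPM, a log2 difference of -0.97 (adjusted p = 0.186) with all libraries and of -0.41 (adjusted p = 0.0445) without DMSO 11. FURIN, which cleaves the ligand precursors, had -0.63 (adjusted p = 0.311), and -0.10 without DMSO 11, and PCSK6, a related convertase gene, had -0.49 (adjusted p = 0.172).

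Intracellular regulators gave 1 rise and 0 falls among 20 tested, beside 3.11% and 0.921% of all genes tested. The fit without DMSO 11 gave 5 rises and 1 fall among them, beside 13.1% and 9.23% of all genes. NEDD4L, an E3 ubiquitin ligase gene whose product targets activated SMADs, was at 77.7, 70.3 and 90.0 CPM in DMSO and 130.4, 140.0 and 139.9 CPM with fenbendazole (0.79 ± 0.135, SE; adjusted p = 0.0208). The call of NEDD4L ended on omission of DMSO 10 (adjusted p of 0.0948) or of fenbendazole 7, 8 or 9 (0.112, 0.126 and 0.137). It also ended with limma on log2(FPKM + 1) and log2(FPKM + 0.1) (adjusted p of 0.0996 and 0.1). SMURF2, another E3 ligase gene, stood at 0.52 on the log2 scale (adjusted p = 0.152) and the repressor gene TGIF1 at 0.40 (adjusted p = 0.202). Both passed without DMSO 11, SMURF2 at 0.36 (adjusted p = 0.00173) and TGIF1 at 0.56 (adjusted p = 0.000358). PMEPA1, a SMAD-induced inhibitor, had -0.23 (adjusted p = 0.372), and -0.11 (adjusted p = 0.340) without DMSO 11.

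Of 13 tested receptors and co-receptors and 6 other SMAD genes, 0 passed by edgeR without offsets, in either direction, with all 6 libraries. Over all genes tested, that fit called 3.11% higher and 0.921% lower. At an unadjusted p under 0.05 there were 0 higher and 3 lower receptors and 0 SMAD genes. DESeq2 called 1 receptor gene lower and limma-voom 0, where they called 722 and 143 of all genes lower. No share of all genes was counted at the unadjusted threshold. NRP1, neuropilin 1, a co-receptor, had 675.2 ± 78.2 CPM in the controls and 483.5 ± 10.7 CPM in the treated libraries (SD, n = 3 each), with groups that did not overlap. Its log2 fold change of -0.48 had an adjusted p of 0.0826, and it was -0.57 (adjusted p = 7.24e-06) without DMSO 11. With all 6 libraries NRP1 passed under DESeq2 (adjusted p = 0.0228) and GC and length offsets (adjusted p = 9.03e-05). It also passed with limma on log2(FPKM + 1) and log2(FPKM + 0.1) (adjusted p of 0.02255 and 0.0230), but in no other setting with all 6. ACVR1B, an activin type I receptor gene, had -0.46 (adjusted p = 0.166), BMPR1B, a BMP type I receptor gene, -0.48 (adjusted p = 0.211) and BAMBI, a decoy receptor gene, 0.39 (adjusted p = 0.542). Without DMSO 11 these were -0.30 (adjusted p = 0.0428), -0.62 (adjusted p = 0.00206) and 0.74 (adjusted p = 0.0815). Among SMADs, SMAD2 had 0.12 (adjusted p = 0.723; 95% interval -0.28 to 0.52), SMAD4, the shared partner, -0.09 (adjusted p = 0.739; -0.42 to 0.24) and SMAD5 0.20 (adjusted p = 0.533). The inhibitory SMAD6 had -0.36 (adjusted p = 0.455) and SMAD9 -0.33 (adjusted p = 0.313). Without DMSO 11, SMAD2 was at -0.039, SMAD5 at 0.041 and SMAD6 at -0.005, while SMAD4 was at -0.20 (adjusted p = 0.0464) and SMAD9 at -0.44 (adjusted p = 0.0139). Without DMSO 11, 4 receptor and co-receptor genes and 2 SMAD genes (SMAD4 and SMAD9) fell and 0 rose. That fit called 13.1% of all genes higher and 9.23% lower. By edgeR with GC and length offsets, ACVR1B (-0.32, adjusted p = 0.0245), BMPR1B (-0.69, adjusted p = 0.00562) and SMAD9 (-0.40, adjusted p = 0.0251) passed as lower. BAMBI did not pass there (0.46, adjusted p = 0.288). The fit with offsets called 2151 of all genes higher and 1511 lower.

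Among the 25 other ligand genes of the superfamily, 14 were tested and 0 passed by edgeR without offsets, with or without DMSO 11. Over all genes tested, edgeR called 3.11% higher and 0.921% lower, and 13.1% and 9.23% without DMSO 11. An unadjusted p under 0.05 gave 0 higher and 2 lower of these ligand genes, and DESeq2 and limma-voom called 0. Over all genes, DESeq2 called 1004 higher and 722 lower, and limma-voom 561 and 143. GDF15, a stress-induced ligand, was at 42.7, 119.0 and 41.5 CPM in DMSO 10, 11 and 12 and at 38.9, 36.7 and 30.6 CPM with fenbendazole. Its log2 difference was -0.94 (adjusted p = 0.240), and -0.24 (adjusted p = 0.170) without DMSO 11. INHBE, the inhibin beta E subunit gene, had -0.68 (adjusted p = 0.157), and -0.45 (adjusted p = 0.0901) without DMSO 11, and GDF7, a BMP-like ligand gene, -0.97 (adjusted p = 0.182). By edgeR with GC and length offsets, INHBE (-0.54, adjusted p = 0.0291) and GDF15 (-0.39, adjusted p = 0.0331) passed as lower. GDF7 did not pass there (-0.72, adjusted p = 0.137). The fit with offsets called 2151 of all genes higher and 1511 lower. Of 16 secreted antagonists 7 were tested and 0 passed by edgeR without offsets, DESeq2 or limma-voom with all 6 libraries. The edgeR fit without DMSO 11 called 2 of the 7 higher and 0 lower, beside 13.1% and 9.23% of all genes. At an unadjusted p under 0.05 with all 6 libraries, 1 antagonist was higher. For ligands and antagonists alike, the share of all genes at that unadjusted threshold was not counted. FSTL1, a follistatin-like gene, had 0.44 (adjusted p = 0.114), and 0.35 (adjusted p = 0.000697) without DMSO 11. CHRD, chordin, an antagonist of BMPs, had -1.01 (adjusted p = 0.364), and -0.17 (adjusted p = 0.833) without DMSO 11. By edgeR with GC and length offsets, FSTL1 passed (0.38, adjusted p = 0.000915) and CHRD did not (-0.31, adjusted p = 0.623). FST, follistatin, which binds activin, had too few counts to be tested, with 0.0996 ± 0.0881 CPM in the controls and 0.181 ± 0.254 CPM in the treated libraries (SD, n = 3 each).

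In the arm through the kinases TAK1 and p38, 0 of 10 genes rose and 1 fell, beside 3.11% and 0.921% of all genes tested. The fit without DMSO 11 gave 2 rises and 2 falls among them, beside 13.1% and 9.23% of all genes. MAP2K6, which encodes a kinase that activates p38, was at 83.7, 63.5 and 83.3 CPM in DMSO and at 32.9, 35.3 and 28.4 CPM with fenbendazole (-1.25 ± 0.168, SE; adjusted p = 0.00865). Omission of fenbendazole 7, 8 or 9 ended the call (adjusted p of 0.0733, 0.0581 and 0.0735). TAB1, which encodes a partner of TAK1, had -1.09 (adjusted p = 0.191), with 39.0 CPM in DMSO 11 against 16.1 and 13.8 CPM in the other controls, and DAXX had 0.58 (adjusted p = 0.142). Without DMSO 11, TAB1 was at -0.46 (adjusted p = 0.110), and DAXX passed the threshold at 0.79 (adjusted p = 0.000119). By edgeR with GC and length offsets, TAB1 passed at -0.67 (adjusted p = 0.0222) and DAXX at 0.74 (adjusted p = 0.000322).

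**Figure D5:**
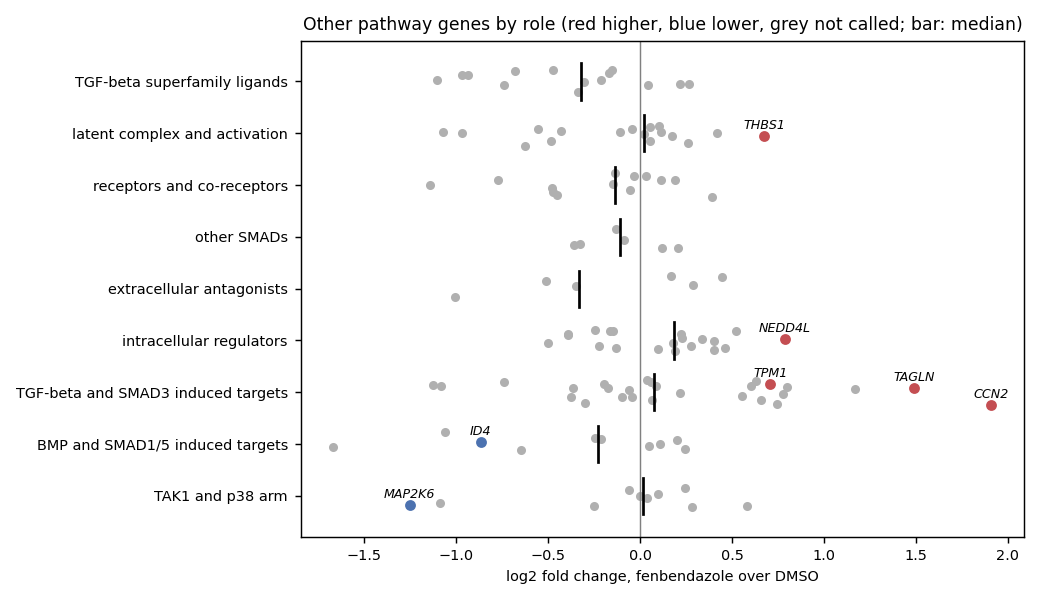
Log2 fold change, fenbendazole over DMSO (x axis), of 123 of the 125 tested pathway genes, each a point, in 9 lists by role (y axis), with genes higher (red) or lower (blue) at an adjusted p of 0.05 named and a black bar at the median of all tested genes of each list. CCN2, TAGLN and TPM1 are higher among the TGF-beta and SMAD3 targets, and ID4 and MAP2K6 are the 2 lower genes.

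The genes whose profile was most like that of TGFB3 were ranked by the root mean square difference in log2(CPM + 0.5) over the 6 libraries, after each gene was centred on its mean, among 11595 genes with a mean of at least 5 CPM. The 5 nearest were C2orf88 (0.211), the endothelial lipase gene LIPG (0.227), SPTLC3, a subunit of serine palmitoyltransferase (0.250), DEPTOR, an inhibitor of mTOR (0.255), and the noncoding RNA CERNA2 (0.271). DEPTOR, for example, was at 96.0, 80.5 and 84.1 CPM in DMSO and 31.3, 29.4 and 29.6 CPM with fenbendazole. This ordering rests on the difference between the groups and the small spread within them, and it is a description.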

How the data were processed

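The authors deposited 1 table with whole-number read counts per gene, not normalised, and FPKM values (fragments scaled to transcript length and library size) for the same 6 libraries, per the file headers. The submitters' processing notes name GRCh38 and the programs HISAT2 2.1.0, StringTie 1.3.4b, CASAVA 1.8 and edgeR. Strand setting, annotation release and counting program: not given in the sources used here.

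Counts were fitted with edgeR 4.0.16 in R 4.3.3 (quasi-likelihood F test, robust, TMM scaling, edgeR's filter on low counts) over all 17363 genes that passed the filter. P-values were adjusted by Benjamini-Hochberg over all of them, at 0.05. The SE of a log2 fold change comes from the F statistic. The fit was tested on simulated data. Intervals and the value of 3 counts in CPM cover these libraries only. No 2 libraries of a group agreed within sampling noise (chi-square per degree of freedom from 5.34 to 100.4).

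The members and lists were chosen with earlier results of these data known. Named were all 10 members, the 3 genes of smallest p in each list, 11 fixed pathway genes, and the 5 genes most like TGFB3. Some genes that this rule takes are not reported here. Alternatives were scaling by upper quartile or by median of ratios, the filter removed or set at 1 CPM in a group, GC and length offsets (GENCODE v29, covering 97.8% of tested genes), DESeq2 1.42.0, limma 3.58.1 with voom or on log2 of FPKM plus 1 or 0.1 (mean FPKM of at least 1), an adjusted p of 0.01, and leaving out each library. Figures were drawn with matplotlib 3.10.9.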

Additional observations from a re-analysis of the deposited data

How the results depend on the processing

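No paired analysis was run because the labels do not say whether DMSO and fenbendazole libraries were paired. TGFB3 stayed between -2.10 and -1.84 on the log2 scale without each library. Under the other scalings, filters, offsets and programs it ran from -2.03 to -1.46, the latter with log2(FPKM + 1). The number of other members higher was 1 with all libraries, 3 with GC and length offsets, 2 with DESeq2, 0 with log2(FPKM + 0.1), where INHBA had 1.46 (adjusted p = 0.0504), and 0 to 3 without 1 library. Over all genes, 700 passed the threshold, against 3662 with GC and length offsets, 1726 with DESeq2, 210 at an adjusted p of 0.01 and 147 to 3946 without 1 library (3946 without DMSO 11). Of the pathway genes 6 were higher and 2 lower. GC and length offsets gave 22 and 13, an adjusted p of 0.01 gave 3 and 1, DESeq2 gave 4 lower, and leaving out 1 library gave 1 to 25 higher and 0 to 13 lower. Fits without 1 library hold fewer samples, and otherwise the cause was not tested.

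Among named genes, direction turned only for those that did not pass the threshold in either fit. TGFBR3 ran from -0.111 to 0.033 without 1 library, SMAD7 from -0.23 to 0.18 and BMP4 from -0.25 to 0.28. SMAD7 was at 0.21 and BMP4 at 0.11 with GC and length offsets. With the same offsets SMAD5 was at -0.036 and LTBP1 at 0.064. LTBP1 ran from -0.096 to 0.016, SMAD2 from -0.039 to 0.231 and ID3 from -0.041 to 0.163 without 1 library. SMAD2 was at -0.29 and -0.32 with log2(FPKM + 1) and log2(FPKM + 0.1), and ID3 at -0.02 with upper-quartile scaling and at -0.028 and -0.029 with the 2 FPKM settings. BMP4 had at most 23 counts in a library, which limits what it can show.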
